A study of Homo sapiens with 4 samples.

Results

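The genes described here encode 2 groups of RNA-binding proteins that steer splicing, the heterogeneous nuclear ribonucleoproteins (hnRNPs) with their close relatives, and the serine/arginine-rich (SR) proteins with the TRA2 pair. They were taken by gene symbol, 40 of the 60302 genes in the table, 27 of them hnRNP-type and 13 of SR or TRA2 type. SRSF8 is listed in 2 overlapping rows, and the one with the higher mean was used. The cells were HMLE, an immortalised human mammary epithelial line. In 2 samples a lentivirus gave stable expression of a non-specific short hairpin RNA (control 1 and control 2). In the other 2 samples the lentiviral hairpin was directed at HNRNPF (knockdown 1 and knockdown 2). All 4 samples therefore carry a lentiviral hairpin. The hairpins' sequences are not given in the labels, nor whether samples of one group were infected separately, so the p-values below measure only the spread between these samples. PolyA-selected RNA was sequenced, and the study's subject is how hnRNP F acts on splicing at RNA G-quadruplexes, 4-stranded structures formed by runs of guanine.

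hnRNP proteins coat nascent transcripts and often silence splice sites, while SR proteins bind exonic enhancers and favour exon inclusion, so that the balance between them shapes which exons are kept. hnRNP F and its paralogs H1, H2 and H3 share quasi-RRM domains that recognise runs of guanine. Many genes of both groups control their own level and that of their paralogs through alternative exons that send the transcript to nonsense-mediated decay, a route called cross-regulation when it acts between paralogs. The question here is whether the level of any of these genes differed when HNRNPF was depleted.

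Values are FPKM, fragment counts scaled to gene length and library size, so levels of different genes can be set side by side. The 4 columns of FPKM summed to between 391184 and 396135. Fragment totals per sample are not listed, and low values of genes with 1 exon were whole multiples of the commonest lowest step in only 42.8% to 45.5% of cases within 0.02, so whole reads were not recovered. The cells carried the keratins of basal mammary epithelium, with KRT5 between 3203 and 4878 FPKM and KRT14 between 2467 and 3984 FPKM. The simple keratins KRT8 (248 to 303 FPKM) and KRT18 (121 to 177 FPKM) were also expressed. Of the 10 mammary epithelial markers listed, both knockdown samples lay above both controls for 3 and below both for 2. As shares these were 30% and 20%, against 17.5% and 17.1% of all genes tested. The blood markers PTPRC, CD3E and HBB and the endothelial markers CDH5, VWF and KDR were under 0.08 FPKM in all 4 samples, CD3E at 0, while CD14, which epithelial cells can also express, was between 0.535 and 1.43 FPKM. Of the fibroblast markers COL1A1 (9.24 to 12.3 FPKM) and THY1 (15.1 to 18.0 FPKM) were present, and the other 6 were under 0.83 FPKM. In bulk RNA, fewer cells of a kind and less RNA per cell cannot be told apart.

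The sequence shared by the F/H paralogs matters for reading their levels, because a read lying wholly inside an identical stretch carries no base that tells 2 genes apart. In the coding sequences of GENCODE 29, HNRNPH1 and HNRNPH2 were 87.6% identical over 1347 aligned bases. HNRNPF was 77.8% identical to HNRNPH1, 76.4% to HNRNPH2 and 67.5% to HNRNPH3. The mitochondrial RNA granule protein gene GRSF1, the most distant, was 61.7% identical to HNRNPF. HNRNPH3 was 71.9% identical to HNRNPH2 and 71.6% to HNRNPH1. The longest identical stretches of the 5 pairs with the highest identity follow, 5′ to 3′, with runs of at least 3 G in capitals. Positions are counted from 1 at the first base of the coding sequence.
HNRNPH1 and HNRNPH2, 50 bases, 772 to 821 in both: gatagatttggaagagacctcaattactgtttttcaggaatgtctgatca
HNRNPF and HNRNPH1, 38 bases, 370 to 407 in both: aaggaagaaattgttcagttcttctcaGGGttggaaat
HNRNPF and HNRNPH2, 23 bases, 394 to 416 in both: tcaGGGttggaaattgtgccaaa
HNRNPH1 and HNRNPH3, 36 bases, 510 to 545 and 225 to 260: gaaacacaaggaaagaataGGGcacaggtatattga
HNRNPH2 and HNRNPH3, 30 bases, 510 to 539 and 225 to 254: gaaacacaaggaaagaataGGGcacaggta
The read length and the way the authors shared reads between copies are not stated in the sources used here. The coding sequences are 1245 bases (HNRNPF), 1347 bases (HNRNPH1 and HNRNPH2) and 1038 bases (HNRNPH3) long. Of the identical stretches only the longest of each pair was sought, in coding sequence alone. How far shared reads affect the levels was not tested.

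The proteins of this family bind G runs, so the G runs in their own messages were counted. HNRNPF has 25 runs of at least 3 G in its coding sequence (20.1 per kb), HNRNPH3 22.2 per kb, HNRNPH2 17.1 per kb, HNRNPH1 14.8 per kb and GRSF1 11.8 per kb. The median over 11419 tested genes with a coding sequence was 11.97 per kb, with an upper quartile of 16.7 per kb, so HNRNPF, HNRNPH2 and HNRNPH3 lay above that quartile, HNRNPH1 below it and GRSF1 below the median. The richest 60-base window held 4 runs in HNRNPH2 and 3 in each of HNRNPF, HNRNPH1, HNRNPH3 and GRSF1. Whether G runs go with the levels was not tested. The windows of the knocked-down gene and of HNRNPH2, the 2 members with the lowest log2 fold changes, are shown with the runs in capitals.
HNRNPF, 1083 to 1142: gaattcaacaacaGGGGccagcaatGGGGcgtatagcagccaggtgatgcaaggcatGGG
HNRNPH2, 1143 to 1202: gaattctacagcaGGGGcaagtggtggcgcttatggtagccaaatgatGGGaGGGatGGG
None of the 40 coding sequences holds a canonical quadruplex pattern on the sense strand, 4 runs of at least 3 G separated by loops of 1 to 7 bases, which 685 of the 11419 do. These are letters in the coding sequence only. They say nothing of binding, and introns were not searched.

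HNRNPF had control values of 154 and 153 FPKM and knockdown values of 18.7 and 16.6 FPKM. Every sample matched its label, and the groups lay far apart. The gene was 8.71-fold lower (154 ± 0.985 against 17.6 ± 1.42 FPKM, mean ± SD, n = 2 in each group here and below). Its log2 fold change on the scale of log2(FPKM + 1) was -3.05 (SE 0.0986, 95% interval -3.32 to -2.79, limma, adjusted p = 0.0251). This was the 1 member of 40 past the adjusted threshold of 0.05, and it is the targeted gene. It was also the only 1 of all 13110 genes tested to pass (0.00763%), so that share is HNRNPF itself. The call did not hold without control 1 (adjusted p = 0.262) or without control 2 (adjusted p = 0.104), at log2 fold changes of -3.05 and -3.06.

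HNRNPH1, the paralog closest to HNRNPF by coding sequence, stood at 96.0 and 75.3 FPKM in controls 1 and 2, against 134 and 117 FPKM under knockdown. Both knockdown samples lay above both controls, and within each group the first sample was the higher. The means were 85.7 ± 14.6 and 126 ± 11.99 FPKM, a ratio of 1.47. The log2 fold change was 0.55 (SE 0.155, 95% interval 0.14 to 0.96) and missed the adjusted threshold (limma, adjusted p = 0.762, unadjusted p = 0.0190). Knockdown 1 exceeded control 1 by 0.48 on the log2 scale and knockdown 2 exceeded control 2 by 0.63. The log2 fold change ranged from 0.38 without control 2 to 0.73 without control 1. HNRNPH1 has 4 transcripts annotated as nonsense-mediated decay targets and 16 as retained introns among its 50 in GENCODE 29, and FPKM per gene does not separate them from the coding forms.

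**Figure D1:**
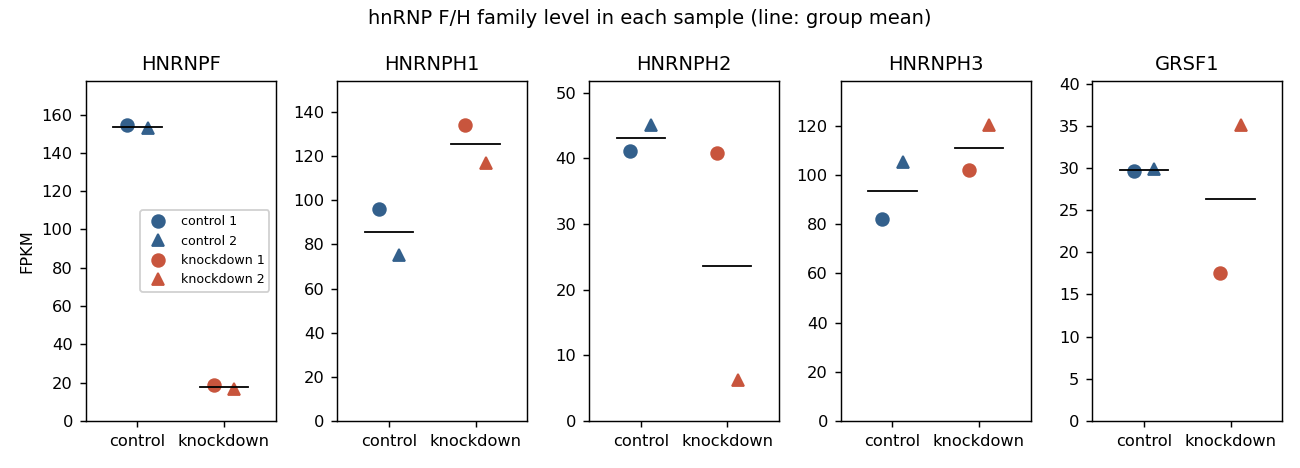
FPKM of the 5 hnRNP F/H family genes in each sample, with a separate linear axis from 0 for each gene; circles are samples numbered 1, triangles samples numbered 2, and lines the means of 2 samples. HNRNPF lies near 154 FPKM in both controls and at 18.7 and 16.6 FPKM in knockdown, HNRNPH1 is higher in both knockdown samples, and HNRNPH2 is low in knockdown 2 alone.

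HNRNPH3, which lacks one of the RNA-binding domains of its paralogs, had control values of 82.1 and 105 FPKM and knockdown values of 102 and 120 FPKM. The groups overlapped, since control 2 lay above knockdown 1. Its log2 fold change was 0.25 (95% interval -0.18 to 0.68). Within each number the knockdown sample was the higher, by 0.31 and 0.19. The log2 fold change was 0.07 without control 1 and 0.43 without control 2.

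HNRNPH2, the X-linked paralog, was at 41.1 and 45.0 FPKM in controls 1 and 2, while knockdown 1 had 40.7 FPKM and knockdown 2 6.30 FPKM. Knockdown 1 lay just under control 1, and only knockdown 2 was far from the rest. That single library sets the log2 fold change of -1.33 (95% interval -3.57 to 0.90, limma, adjusted p = 0.916). Without knockdown 2 the log2 fold change was -0.08, and without knockdown 1 it was -2.59 (limma, adjusted p = 0.125). The 6.47-fold gap between the 2 knockdown samples was the widest within a group among the 40 members. The gene shares its locus with the readthrough gene RPL36A-HNRNPH2, at 3.57, 1.77, 0.256 and 1.42 FPKM in controls 1 and 2 and knockdown 1 and 2. With those values added the log2 fold change was -1.29. HNRNPH2 has 1 annotated transcript. Its closest relative by sequence, HNRNPH1, was at 117 FPKM in the same library. That was below its 134 FPKM in knockdown 1 and above its 96.0 and 75.3 FPKM in controls 1 and 2. Whether reads shared between HNRNPH1 and HNRNPH2 affect these values was not tested.

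The level of GRSF1 was 29.6 and 29.9 FPKM in controls 1 and 2, while knockdown 1 had 17.5 FPKM and knockdown 2 35.1 FPKM. The controls lay close together and the knockdown samples lay on opposite sides of them. Its log2 fold change of -0.25 (95% interval -1.13 to 0.63) turned to 0.23 without knockdown 1.

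The summed level of the 4 hnRNP F and H genes was 374 and 379 FPKM in controls 1 and 2, against 296 and 260 FPKM under knockdown. HNRNPF held 41.3% and 40.4% of that sum in the controls and 6.31% and 6.40% in knockdown. HNRNPH1, HNRNPH2 and HNRNPH3 together were at 219 and 226 FPKM in controls 1 and 2, against 277 and 243 FPKM under knockdown, without overlap. The difference of their mean sums, 37.8 FPKM, compares with a loss of 136 FPKM in HNRNPF. The 3 genes did not move alike. Their mean differences were 39.8 FPKM for HNRNPH1, 17.5 FPKM for HNRNPH3 with overlapping groups, and -19.5 FPKM for HNRNPH2, set by knockdown 2. Whether the paralogs respond to the loss of HNRNPF was not tested on this sum. The ratio of HNRNPH1 to HNRNPF was 0.622 and 0.492 in controls 1 and 2, against 7.18 and 7.03 under knockdown. HNRNPF is part of that ratio, which therefore mostly restates the knockdown.

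Most of the other members had small estimated differences between the groups, many with wide intervals. HNRNPH2 (log2 fold change -1.33, set by knockdown 2) and HNRNPH1 (0.55) had the largest in size. Of the 39 members other than HNRNPF, 0 passed the adjusted threshold (limma), 2 had an unadjusted p under 0.05 (HNRNPH1 higher and SRSF4 lower), and 32 had a log2 fold change smaller than 0.2 in size. Over all 13110 genes tested, 6.08% had an unadjusted p under 0.05 and 69.9% a log2 fold change smaller than 0.2 in size. Leaving out each sample in turn changed the sign for 25 of the 40 members. The median log2 fold change of the 39 was -0.0234, beside 0.0012 over all genes tested. The 95% interval lay between -1 and 1 for 37 of the 39, the exceptions being HNRNPH2 and GRSF1, and between -0.5 and 0.5 for 22, as for 87.1% and 37.0% of all genes tested. A change of 2-fold on this scale was thus outside the interval of 37 members, while smaller changes were not resolvable for many of them with 2 samples a group. Counted over all 40, both knockdown samples lay above both controls for 2 members (HNRNPH1 and SRSF9), against 17.5% of all genes tested. Both lay below for 6 members (HNRNPF, HNRNPH2, HNRNPA3, HNRNPR, HNRNPUL2 and SRSF4), against 17.1%. As shares of the 40, 5% lay above both controls, below the share of all genes, and 15% lay below both, near that of all genes.

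**Figure D2:**
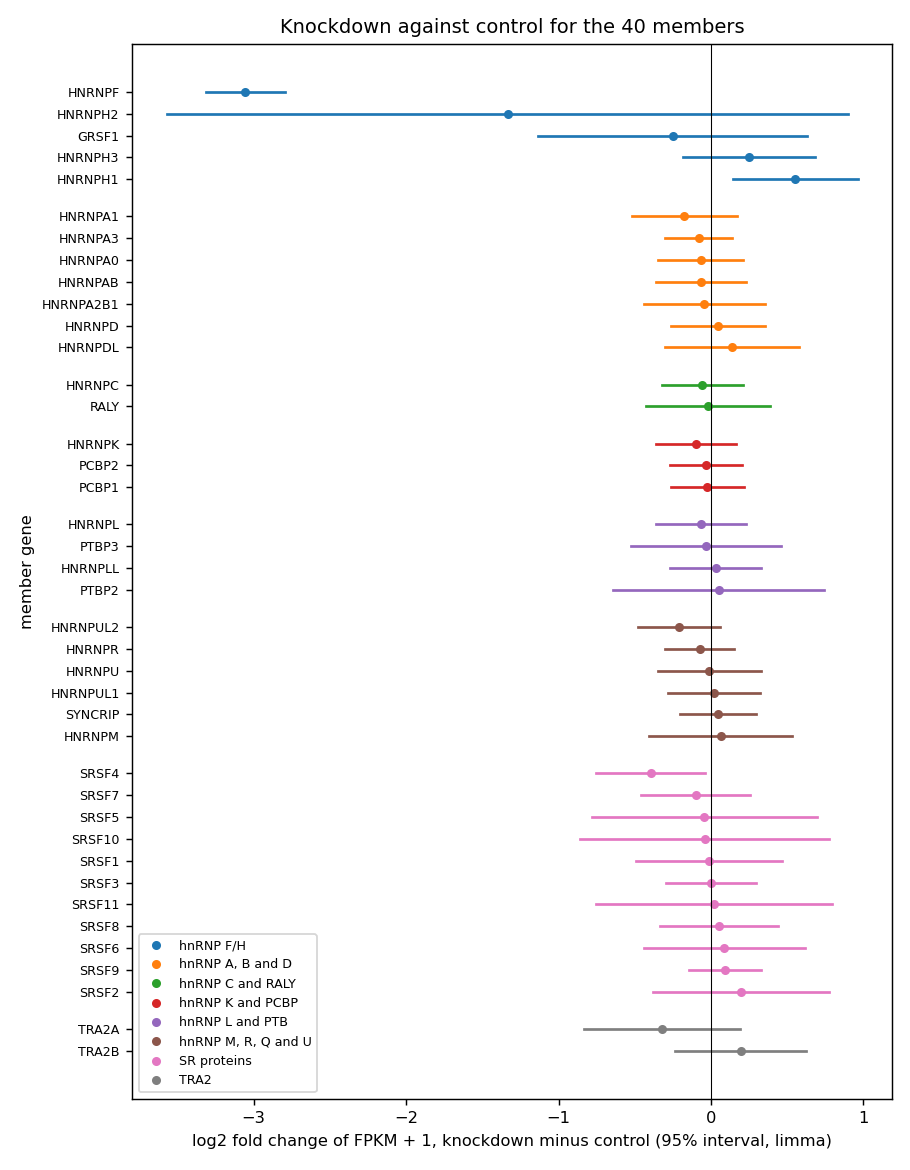
Log2 fold change of FPKM + 1 in knockdown against control for the 40 members, with 95% intervals from limma (2 samples a group), grouped by family. HNRNPF stands at -3.05, HNRNPH2 and GRSF1 have the widest intervals, and 37 of the 39 other members have intervals inside -1 to 1.

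The A, B and D group holds the most abundant hnRNPs, which bind AG-rich or AU-rich sequence and often oppose SR proteins. HNRNPA2B1 was the most abundant of all members and stood at 381 and 440 FPKM in controls 1 and 2, against 358 and 440 FPKM under knockdown. HNRNPA1 had control values of 297 and 334 FPKM and knockdown values of 257 and 303 FPKM, with the second sample of each group the higher. Its log2 fold change was -0.18 (95% interval -0.52 to 0.17), and within each number the knockdown sample was the lower, by -0.21 and -0.14. Without knockdown 1 the log2 fold change was -0.06, and it was -0.29 without knockdown 2. The table also lists 75 HNRNPA1 pseudogene rows that together held 77.3, 86.0, 80.3 and 96.9 FPKM in the 4 samples, so its values depend on how reads shared with these copies were counted and are uncertain. HNRNPA3 stood at 98.3 and 99.2 FPKM in controls 1 and 2, against 94.2 and 92.4 FPKM under knockdown, a separation without overlap but of only -0.08 on the log2 scale (95% interval -0.30 to 0.14). Its 16 pseudogene rows together held 17.8, 16.1, 16.3 and 16.5 FPKM in the 4 samples, so the same uncertainty applies to this small separation. HNRNPA0, HNRNPAB and HNRNPD had log2 fold changes between -0.07 and 0.05. HNRNPDL, which regulates its own splicing, had control values of 70.1 and 53.7 FPKM and knockdown values of 62.9 and 72.6 FPKM. Its difference was -0.15 at number 1 and 0.43 at number 2.

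HNRNPC, which binds uridine tracts and keeps cryptic exons out, stood at 251 and 254 FPKM in controls 1 and 2, against 230 and 257 FPKM under knockdown, with overlapping groups. The 9 HNRNPC pseudogene rows together held 7.68, 8.08, 6.73 and 7.58 FPKM in the 4 samples. RALY, a relative of HNRNPC, was between 55.7 and 73.1 FPKM in all 4 samples. The KH-domain proteins bind C-rich sequence. HNRNPK had control values of 273 and 298 FPKM and knockdown values of 274 and 259 FPKM, PCBP1 between 147 and 158 FPKM and PCBP2 between 222 and 235 FPKM in all samples. The log2 fold changes of these 5 genes lay between -0.10 and -0.02, and each pair of groups overlapped. PCBP1 and RALY overlap antisense genes in the table. The libraries were stranded, but whether the counting used the strand is not stated in the sources used here.

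In the L and PTB group, HNRNPL stood at 172 and 192 FPKM in controls 1 and 2, against 164 and 183 FPKM under knockdown, and its relative HNRNPLL lay between 12.1 and 13.04 FPKM in all samples. PTBP2, the form of the polypyrimidine tract protein best known from neurons, was the least abundant member. It had control values of 4.41 and 2.95 FPKM and knockdown values of 4.67 and 3.04 FPKM, so that the first sample of each group was the higher and the group means were close (log2 fold change 0.05, 95% interval -0.64 to 0.74). PTBP3 stood at 43.4 and 30.5 FPKM in controls 1 and 2, against 35.8 and 35.3 FPKM under knockdown.

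Among the M, R, Q and U proteins, HNRNPU, a nuclear matrix protein, had a log2 fold change of -0.01, HNRNPM of 0.06, SYNCRIP (hnRNP Q) of 0.05 and HNRNPUL1 of 0.02. HNRNPR had control values of 86.7 and 88.9 FPKM and knockdown values of 81.7 and 85.2 FPKM, without overlap and with a log2 fold change of -0.07. HNRNPUL2 stood at 36.4 and 38.8 FPKM in controls 1 and 2, against 30.9 and 33.9 FPKM under knockdown. It too did not overlap, with a log2 fold change of -0.21 (SE 0.102, 95% interval -0.48 to 0.06, limma, adjusted p = 0.872), the lowest in this group. Added to its readthrough gene HNRNPUL2-BSCL2, which was under 0.92 FPKM throughout, it stood at -0.20.

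SRSF4, a large SR protein, had the lowest log2 fold change of the SR group. It had control values of 25.9 and 21.9 FPKM and knockdown values of 19.1 and 16.8 FPKM, without overlap (23.9 ± 2.79 against 17.9 ± 1.598 FPKM, 1.33-fold lower). The log2 fold change was -0.39 (SE 0.135, 95% interval -0.75 to -0.04) and missed the adjusted threshold (limma, adjusted p = 0.806, unadjusted p = 0.0370). Knockdown lay below control by -0.42 at number 1 and -0.37 at number 2. SRSF9, a short SR protein, stood at 101 and 106 FPKM in controls 1 and 2, against 107 and 114 FPKM under knockdown, with a log2 fold change of 0.09 (95% interval -0.14 to 0.33).

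SRSF2, which binds exonic enhancers and controls its own level through decay-prone isoforms, was at 27.2 and 30.2 FPKM in controls 1 and 2, while knockdown 1 had 40.6 FPKM and knockdown 2 26.8 FPKM. Knockdown 1 was thus the high sample, and the log2 fold change of 0.20 fell to -0.09 without it. The TRA2 pair, SR-like activators of exon inclusion, had differences of opposite sign. TRA2A had control values of 25.2 and 20.2 FPKM and knockdown values of 20.6 and 15.4 FPKM, with a log2 fold change of -0.32 (95% interval -0.83 to 0.19). Knockdown 1 and control 2 overlapped, while within each number knockdown was the lower, by -0.28 and -0.37. Its log2 fold change ranged from -0.12 without knockdown 2 to -0.52 without knockdown 1. TRA2B stood at 33.0 and 25.9 FPKM in controls 1 and 2, against 31.0 and 36.4 FPKM under knockdown, with a log2 fold change of 0.19 (95% interval -0.24 to 0.62), which was 0.02 without control 2 and 0.36 without control 1. Whether the 2 genes differ in their response was not tested.

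Several SR genes varied more between the samples of one group than between the groups. SRSF10, a splicing repressor active when dephosphorylated, had control values of 23.3 and 14.0 FPKM and knockdown values of 21.3 and 14.5 FPKM. SRSF11 stood at 47.1 and 31.9 FPKM in controls 1 and 2, against 49.2 and 31.4 FPKM under knockdown. SRSF5 had control values of 46.1 and 33.3 FPKM and knockdown values of 47.8 and 30.1 FPKM. In all 3 genes the samples numbered 1 were high and those numbered 2 low, and their log2 fold changes lay between -0.04 and 0.02, with 95% intervals reaching from -0.86 to 0.79. SRSF6 (31.2 and 24.2 against 33.8 and 25.3 FPKM) and SRSF1 (77.2 and 63.4 against 79.8 and 60.4 FPKM) had the same order. In 9 of the 13 SR and TRA2 genes the first sample exceeded the second in both groups, against 6872 of the 13110 genes tested. In 15 of the 26 hnRNP genes other than HNRNPF the second sample exceeded the first in both groups, against only 2408 of the 13110. The commoner order of these hnRNP genes was thus the less common of these 2 orders over all genes. The labels do not say what a replicate number marks.

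**Figure D3:**
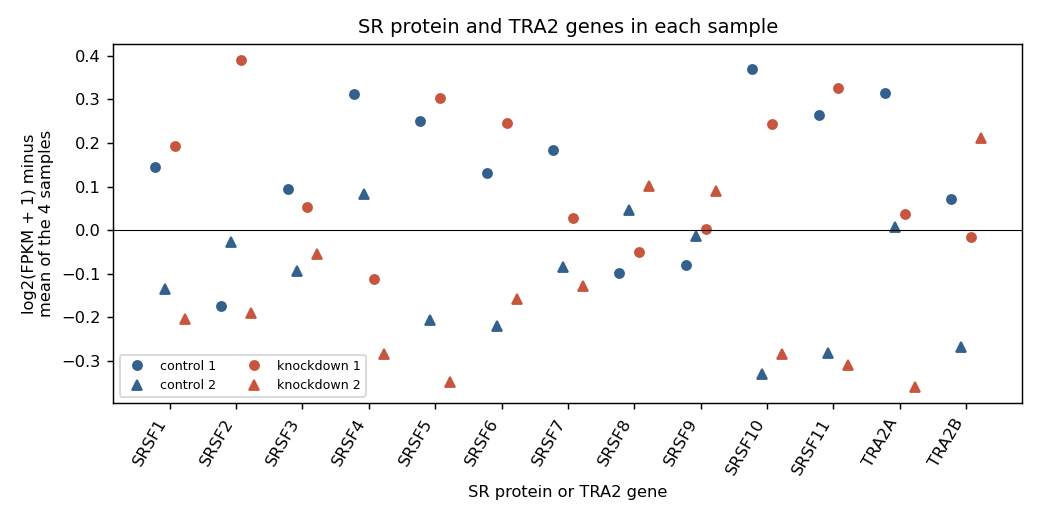
Level of the 13 SR protein and TRA2 genes in each sample, as log2(FPKM + 1) minus the gene's mean over the 4 samples; circles are samples numbered 1, triangles samples numbered 2. For SRSF1, SRSF3, SRSF5, SRSF6, SRSF7, SRSF10, SRSF11 and TRA2A both circles lie above both triangles, while SRSF4 and SRSF9 separate by knockdown.

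Summed over the 13 SR and TRA2 genes, the level was 541 and 461 FPKM in controls 1 and 2, against 548 and 461 FPKM under knockdown, so the samples of one number were nearly equal across the groups. The remaining 26 hnRNP genes summed to 2973 and 3155 FPKM in controls 1 and 2, against 2903 and 3096 FPKM under knockdown, with the opposite order of the numbers. Compared within each number, 7 of the 39 members other than HNRNPF were higher in knockdown at both numbers, 11 were lower at both and 21 went opposite ways. Over all 13110 genes tested, 4134 were higher at both, 4162 lower at both and 4810 went opposite ways.

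**Figure D4:**
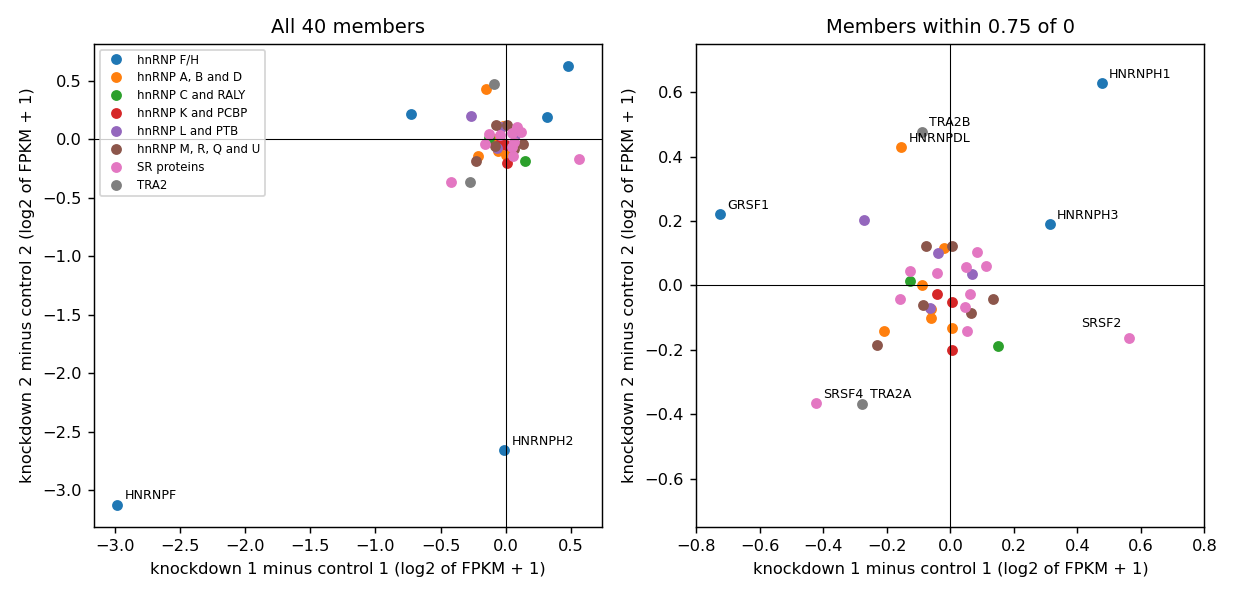
Difference of knockdown and control on the log2(FPKM + 1) scale for each member, at number 1 (horizontal axis) and number 2 (vertical axis); the right panel enlarges the region within 0.75 of 0. HNRNPF is low on both axes, HNRNPH2 on the vertical axis alone, HNRNPH1 and HNRNPH3 are above 0 and SRSF4 and TRA2A below 0 on both.

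Annotated decay-prone transcripts were a feature of 28 of the 40 members that the choice by name did not use. All 13 SR and TRA2 genes have at least 1 transcript annotated as a nonsense-mediated decay target, and so do 15 of the 27 hnRNP-type genes (55.6%), beside 44.4% of the 11419 tested genes with a coding sequence. HNRNPU has 9 such transcripts and SRSF7 6. HNRNPF has 0, as do HNRNPH2 and HNRNPH3. FPKM per gene sums all forms, so a shift between coding and decay-prone isoforms at a constant total was not measurable here. G runs were also uneven: HNRNPM had the most (24.2 per kb) and SRSF10 the fewest (2.54 per kb).

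The genes of proteins that phosphorylate, import and scaffold SR proteins likewise had small estimated differences. Of 10 genes, 0 passed (limma), at an unadjusted p under 0.05 there were also 0, and the median log2 fold change was -0.0344. TNPO3, which imports phosphorylated SR proteins, was below both controls in both knockdown samples (27.9 and 24.9 against 24.8 and 24.1 FPKM). SON, a speckle scaffold protein, was above (61.3 and 55.5 against 64.8 and 62.0 FPKM). The log2 fold changes were -0.10 for TNPO3 (95% interval -0.39 to 0.18) and 0.12 for SON (95% interval -0.14 to 0.38). As shares of the 10, 10% lay above both controls and 10% below both, against 17.5% and 17.1% of all genes tested. The kinase gene SRPK2, with the smallest p of the 10, stood at 19.4 and 17.5 FPKM in controls 1 and 2, against 22.1 and 19.3 FPKM under knockdown. Of 34 other splicing regulators 32 were tested and 0 passed, with a median of -0.0112, 1 higher and 2 lower at an unadjusted p under 0.05, beside 3.06% and 3.02% of all genes tested. RBM3, a cold-inducible RNA-binding protein, had control values of 102 and 136 FPKM and knockdown values of 49.9 and 57.5 FPKM (log2 fold change -1.12, limma, adjusted p = 0.482). MATR3, a nuclear matrix protein that binds RNA, stood at 28.5 and 38.0 FPKM in controls 1 and 2, against 23.6 and 19.5 FPKM under knockdown (log2 fold change -0.60, adjusted p = 0.780 in limma). MATR3 is listed in 2 rows, and these values are those of the row with the higher mean alone. They may therefore depend on how reads were divided between the 2 rows, which was not tested.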

How the data were processed

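The authors deposited FPKM for 60302 genes, 1 column for each of 4 samples (2 controls, 2 hnRNPF knockdown), with a symbol, an Ensembl identifier and a GRCh37 locus. The submitters' processing notes name STAR 2.5.3a and Cuffdiff 2.2.1. What each did, and which annotation was used, is not stated in the sources used here. Samples were grouped by title. From these values log2(FPKM + 1) was computed for the 13110 genes averaging 1 FPKM or more, which all 40 members passed, and compared with limma 3.58.1 in R 4.3.3 (intensity trend, no covariate, two-sided, Benjamini-Hochberg adjustment over all genes tested). The fit was tested on simulated data. With 2 samples in each group the smallest exact permutation p is 0.333, and no such test was run. The members and lists were chosen with earlier results of these data known. Values of every sample are given for the F/H genes, for members without overlap and for members with at least 1.5 times between samples of a group, and for some others chosen after their values were seen. The sequence features, the counts by sample number and within number, the interval bounds of 1 and 0.5 and the summed levels were chosen after the data were seen. For the other lists the 3 genes with the smallest p are named, except that 1 of them, and 1 marker gene, are not reported here. Coding sequences are those of the best APPRIS transcript in GENCODE 29 (GRCh38), matched by identifier for all 40 members, and none of its coordinates are printed. Python 3.11.15 with Biopython 1.88 and matplotlib 3.10.9 was used. Alternatives were other pseudocounts, filters, scalings and variance priors, the replicate number as a block, added readthrough values and leaving out each sample.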

Additional observations from a re-analysis of the deposited data

How the results depend on the processing

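The log2 fold change of HNRNPF stayed near its value in every alternative run, but it missed the threshold (0 members past it) with no filter (-3.055, limma, adjusted p = 0.259), without the intensity trend (-3.055, adjusted p = 0.0995) and with the replicate number as a block (-3.055, adjusted p = 0.164). Leaving out each sample in turn gave between -3.132 and -2.977 for HNRNPF and 0 to 1 members past the threshold. With the replicate block 5 members had an unadjusted p under 0.05, against 3 without it, while the share of all genes went from 6.08% to 13.7%. Same-numbered samples deviated together (r = 0.39 across 13110 genes, which are not independent replicates), but the labels do not say that a number marks a shared batch. Members above both controls numbered 4 with quantile normalization and 1 with median-ratio scaling, beside 17.0% and 17.6% of all genes. Leaving out 1 sample, which makes separation easier, gave 9 to 12 members above and 13 to 14 below, beside 25.8% to 42.4% and 25.3% to 43.3% of all genes. These ranges do not run in parallel. Without control 1, 11 of the 40 members lay above and 14 below, beside 42.4% and 25.4% of all genes. Without control 2, 10 lay above and 13 below, beside 26.9% and 43.3%. The sign of a small difference rested on single samples: leaving out each sample in turn turned it for 25 of the 40 members, and 15 kept it in every alternative run. The log2 fold changes then ranged over -0.7324 to 0.2295 for GRSF1, -0.1911 to 0.1029 for HNRNPA2B1, -0.1693 to 0.04312 for HNRNPAB, -0.1335 to 0.02182 for HNRNPC, -0.06756 to 0.1627 for HNRNPD, -0.05211 to 0.3277 for HNRNPDL, -0.1465 to 0.01184 for HNRNPL, -0.005771 to 0.06863 for HNRNPLL and -0.1279 to 0.2561 for HNRNPM. They ranged over -0.1434 to 0.1239 for HNRNPU, -0.09447 to 0.1383 for HNRNPUL1, -0.07442 to 0.02763 for PCBP1, -0.1922 to 0.295 for PTBP2, -0.2805 to 0.2128 for PTBP3, -0.2123 to 0.1742 for RALY, -0.2083 to 0.1869 for SRSF1, -0.3911 to 0.3079 for SRSF10 and -0.2986 to 0.3361 for SRSF11. For the remaining genes they lay at -0.09015 to 0.4892 for SRSF2, -0.09598 to 0.0933 for SRSF3, -0.3703 to 0.2805 for SRSF5, -0.1142 to 0.2885 for SRSF6, -0.2351 to 0.03467 for SRSF7, -0.02303 to 0.1279 for SRSF8 and -0.01134 to 0.1029 for SYNCRIP. Without a change of sign, leaving out 1 sample moved the log2 fold change by over 1.5 times for HNRNPH2, HNRNPH3, HNRNPA1 and the TRA2 pair (values given above), and also for SRSF9 (0.04982 to 0.1364), HNRNPR (-0.1026 to -0.04295), HNRNPA0 (-0.1097 to -0.02553), HNRNPK (-0.1591 to -0.03574), PCBP2 (-0.06323 to -0.002552), MATR3 (-0.7986 to -0.3917), SRPK2 (0.06428 to 0.2508), SON (0.04847 to 0.1888) and TNPO3 (-0.1822 to -0.02336). Quantile normalization also turned RALY (0.0009701), SRSF1 (0.01132) and SRSF3 (0.01505). No member but HNRNPF was past the threshold in any alternative (limma), and PTBP2 was not fitted with the filter at 5 FPKM. The genes named from the other lists kept their sign. With 2 samples a group and no fragment counts, precision rests on the spread between samples, and changes under 2-fold were often not resolvable.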
